A study of Homo sapiens with 8 samples.

Results

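The genes described here are 10 that keratinocytes use to send and to limit inflammatory signals. They are the interleukin-1 (IL-1) family ligands IL1A, IL1B and IL18, the IL-1 receptor antagonist IL1RN, the cytokine IL6, the neutrophil-attracting chemokines CXCL8, CXCL1 and CXCL2, and the NF-kB feedback inhibitors TNFAIP3 and NFKBIA. They were picked by gene symbol from a table of 61806 genes, and each symbol matched 1 row. All 10 had enough counts to be tested. The libraries came from N/TERT-1 cells, an immortalized line of human keratinocytes that is wild type here, grown in keratinocyte serum-free medium with epidermal growth factor and pituitary extract. In 4 libraries the cells had received ethanol, the solvent, and in 4 they had received O/A. O/A combines oligomycin, a blocker of mitochondrial ATP synthase, and antimycin A, a blocker of complex III of the respiratory chain, so that mitochondria lose their membrane potential. The labels are silent on dose and time, for which the study's text gives 4 hours for the RNA experiment, and 10 µM oligomycin with 4 µM antimycin A for an imaging experiment. All libraries are of 1 cell line and 1 time of treatment, which limits them as a model of skin.

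IL-1α and IL-1β, the products of IL1A and IL1B, bind the same receptor on neighbouring cells. IL1RN encodes a protein that occupies that receptor without activating it. Epidermal keratinocytes store IL-1α and release it when they are damaged, whereas IL-1β and IL-18 are made as precursors that inflammasome caspases cleave. Receptor signalling frees NF-kB from its cytoplasmic inhibitor IκBα, encoded by NFKBIA, and NF-kB then drives transcription of chemokine genes and of its own inhibitors, NFKBIA and the ubiquitin-editing enzyme A20, encoded by TNFAIP3.

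Total counts ranged from 17210404 to 20999927 for ethanol and from 17689760 to 19263046 for O/A. Libraries of the same condition differed from each other by more than counting noise, since the chi-square over 14195 genes, divided by its degrees of freedom, was 1.68 to 4.97, and it was 44.2 to 53.4 between conditions. All 8 keratinocyte markers were expressed, with a summed FPKM (fragments scaled by exonic length and by the total of the library) of 5060 to 5406 in ethanol and 4569 to 4819 in O/A, and KRT5 (log2FC -0.30) and SFN (-0.28) were called lower in O/A. Of 9 immune cell markers, 7 were too low to test and CD207 and TPSAB1 were among those at 0 in every library. The summed FPKM of these immune markers was 0.74 to 1.15 in ethanol and 1.11 to 1.33 in O/A, with CD68 (15 to 27 against 27 to 33 counts) and ITGAM (5 to 22 against 14 to 26) called higher. CD68 was no longer called without ethanol replicate 1 (adjusted p = 0.124), O/A replicate 1 (0.0896) or O/A replicate 4 (0.0700) in the same edgeR test, nor by DESeq2 (0.0778), with no filter (0.0762) or with library totals only (0.0533). On log2(FPKM + 1), limma gave CD68 a log2FC of 0.21 and ITGAM 0.13, both within the fold threshold described below. PTPRC and CD14 were among the 7 immune markers too low to test, and the part of immune markers in the results below was not tested. The summed FPKM of the fibroblast markers was 2.42 to 2.95 in ethanol and 2.45 to 2.70 in O/A, that of the melanocyte markers 1.37 to 1.81 and 1.26 to 1.71, and that of the endothelial markers 0.04 to 0.07 and 0.03 to 0.08. In bulk RNA, fewer cells of a type and less RNA per cell cannot be told apart.

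Of the 10 genes, 9 were higher in O/A and none was lower. CXCL8 rose most, 5.41-fold, followed by IL1A (4.01-fold), CXCL2 (3.92-fold), IL1B (3.19-fold), IL6 (2.43-fold) and CXCL1 (1.70-fold). IL1RN (1.35-fold), NFKBIA (1.32-fold) and TNFAIP3 (1.30-fold) rose by smaller amounts. IL18 did not pass the test, at 1.03-fold with a 95% confidence interval of 0.979 to 1.07. A gene was called when edgeR's quasi-likelihood test gave a Benjamini-Hochberg adjusted p of at most 0.05 over the 14893 genes tested and the absolute log2 fold change (log2FC) was above 0.25. By this rule 15.8% of all genes tested were called higher and 18.9% lower, beside 9 of the 10 genes higher and 0 lower. DESeq2, and limma on FPKM values, also called 9 of the 10 higher and 0 lower. For the same 9 genes every O/A library lay above every ethanol library, as it did for 22.8% of all genes tested. The log2FC of 5 of the 10 was above 1, as it was for 2.56% of all genes tested with the same adjusted p. The median log2FC of the 10 genes was 1.02, beside a median of 0.00 over all genes tested. The 10 genes, and the lists further below, were chosen with earlier results of these data known. Their shares and medians beside those of all genes are therefore descriptive only. The plot of the 10 genes by library sets these levels side by side.

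**Figure D1:**
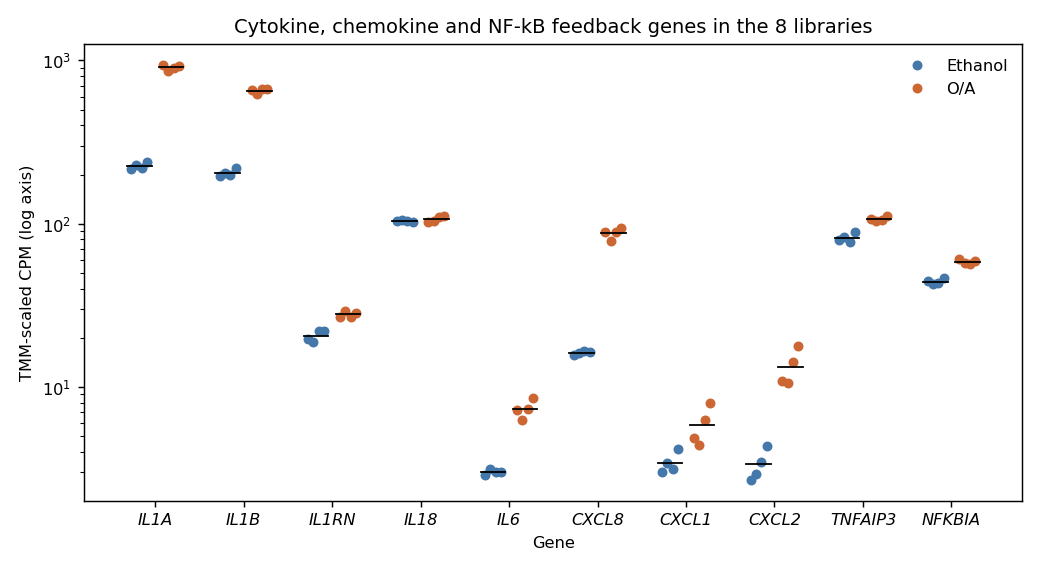
TMM-scaled CPM (log axis) of the 10 genes in each of the 4 ethanol and 4 O/A libraries, with each point a library and each bar the mean of a condition. The groups are apart for every gene but IL18, and the points of CXCL1 and CXCL2 are the most spread within a condition.

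IL1A (ENSG00000115008, chromosome 2, 112773925 to 112784493, minus strand) was the highest of the 10 genes by FPKM in both conditions. Its FPKM was 109.17, 114.96, 110.94 and 119.91 in ethanol replicates 1 to 4, and 459.25, 419.84, 438.44 and 450.20 in O/A replicates 1 to 4. The lowest O/A library was thus far above the highest ethanol library, and the libraries of a condition lay close together. The mean rose from 114 ± 4.77 to 442 ± 17.0 FPKM (SD, n = 4 each), with a log2FC of 2.00 (SE 0.030, adjusted p = 1.76e-36, edgeR's quasi-likelihood test, as for every adjusted p of a gene below). IL1A ranked 79th of the 14893 genes by log2FC.

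IL1B (ENSG00000125538, chromosome 2, 112829751 to 112836816, minus strand) lies next to IL1A and was second by FPKM. The ethanol libraries held 65.66, 69.21, 67.64 and 74.27 FPKM, and the O/A libraries 216.50, 204.06, 217.02 and 217.62 FPKM. The groups were again far apart, and O/A replicate 2 was a little below the other O/A libraries. The log2FC was 1.67 (SE 0.031, adjusted p = 1.48e-30). The rise of IL1B was smaller than that of IL1A: the FPKM ratio of IL1B to IL1A was 0.608 ± 0.00838 in ethanol and 0.484 ± 0.00972 in O/A (SD, n = 4). This difference of -0.33 on the log2 scale had an exact permutation p of 0.0286, two-sided, which is the smallest that 4 libraries against 4 can give, and 0.0343 after Benjamini-Hochberg adjustment over the 6 gene ratios compared.

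IL1RN (ENSG00000136689, chromosome 2, 113099315 to 113134016, plus strand), whose product competes with both ligands, was present at a far lower level. Its FPKM was 5.29, 5.15, 6.02 and 5.99 in the ethanol libraries and 7.05, 7.76, 7.01 and 7.49 in the O/A libraries. The groups did not overlap, though the gap between them was about as wide as the spread within ethanol. Its log2FC of 0.43 (SE 0.061, adjusted p = 3.57e-08) left it well behind its competitors. The ratio of IL1RN to IL1A fell from 0.0494 ± 0.00392 in ethanol to 0.0166 ± 0.00135 in O/A, a difference of -1.57 on the log2 scale (exact permutation p = 0.0286, adjusted p = 0.0343 over 6 ratios, lower in 4 of 4 O/A libraries than in any ethanol library). The ratio of IL1RN to IL1B fell from 0.0812 ± 0.00599 to 0.0343 ± 0.00264, a difference of -1.24 (exact permutation p = 0.0286, adjusted p = 0.0343). Antagonist mRNA was thus scarcer relative to the mRNA of either agonist in O/A, although it rose itself. Counts per gene do not separate IL1RN transcripts from different start sites. The plot of gene ratios shows each library.

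**Figure D2:**
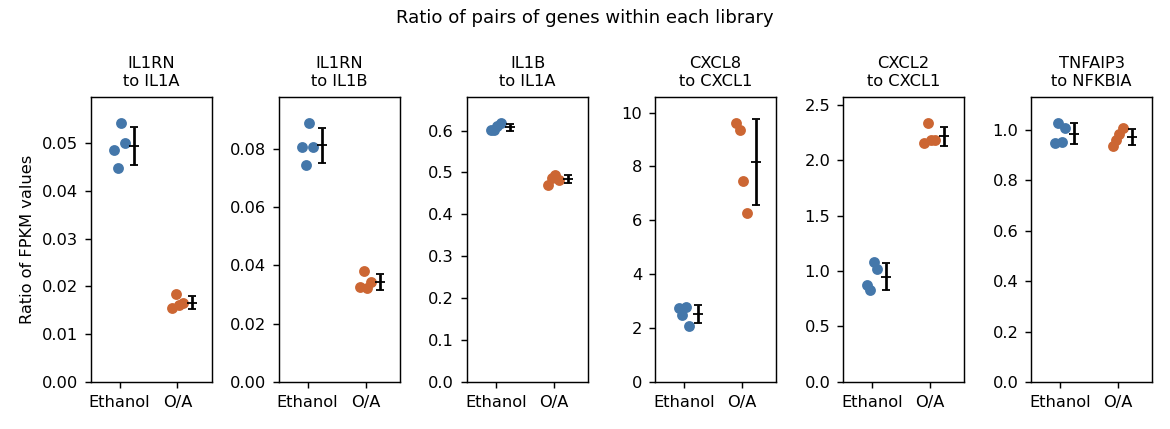
Ratio of the FPKM values of 2 genes within each library, for 6 pairs, with each point a library and bars at the mean ± SD of 4 libraries. The ethanol and O/A points are apart in 5 pairs and mixed for TNFAIP3 to NFKBIA, and each panel has its own vertical axis, from 0.

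IL18 (ENSG00000150782, chromosome 11, 112143253 to 112164096, minus strand) was the only one of the 10 genes that was not called. It was the third most abundant in both conditions, with 40.14, 41.35, 41.00 and 40.05 FPKM in ethanol and 38.69, 39.52, 41.39 and 41.86 in O/A. The O/A libraries lay on both sides of the ethanol libraries. The log2FC was 0.04 (SE 0.033, adjusted p = 0.372), and the exact permutation test gave p = 0.343. With 1783 to 2191 counts per library the depth did not limit this value, and its 95% confidence interval of -0.03 to 0.10 on the log2 scale lay within the fold threshold on both sides.

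The 3′ untranslated regions of cytokine mRNAs often carry AU-rich elements, runs of the pentamer ATTTA through which RNA-binding proteins shorten the life of a transcript. They are shown for the genes that rose most because RNA-seq measures the level of mRNA, to which both synthesis and decay contribute, and these libraries do not separate them. In the GENCODE MANE transcripts, ATTTA occurred 5 times in the 3′ untranslated region of IL1A, 6 times in that of IL1B, 6 in IL6, 9 in CXCL8, 6 in CXCL1, 10 in CXCL2, 5 in TNFAIP3 and 3 in NFKBIA, and not at all in IL1RN or IL18. The median over 11981 tested genes was 2 per gene and 1.78 per kilobase, and 48.2% of these genes held 3 or more. By length, IL6 (14.1 per kilobase), CXCL2 (14), IL1B (9.84), CXCL1 (7.77) and CXCL8 (7.19) were the densest of the 10, and TNFAIP3 (2.51) was near the median of all genes. The longer form TTATTTATT, which 9.82% of genes carry, occurred 5 times in CXCL2, 3 times in CXCL1, 2 times in IL1B and once each in CXCL8 and TNFAIP3. The densest 30 bases of each of 6 genes are given 5′ to 3′ from GRCh38 with ATTTA in capitals, and all lie in the last exon. A match is a description of the sequence and no measure of decay.
IL1A (chr2:112774424-112774453, minus strand): tATTTAtatatgtATTTAtaaatatATTTA
IL1B (chr2:112829995-112830024, minus strand): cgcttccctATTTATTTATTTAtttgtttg
IL6 (chr7:22731741-22731770, plus strand): agttaATTTAtgtaagtcatATTTAtattt
CXCL8 (chr4:73743111-73743140, plus strand): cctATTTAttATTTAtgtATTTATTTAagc
CXCL1 (chr4:73870673-73870702, plus strand): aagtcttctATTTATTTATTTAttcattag
CXCL2 (chr4:74097586-74097615, minus strand): cttctATTTATTTATTTATTTATTTAtttg

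IL6 (ENSG00000136244, chromosome 7, 22725884 to 22732002, plus strand), a cytokine that signals through IL6R and the shared receptor chain IL6ST, was the lowest of the 10 by FPKM in both conditions. Its ethanol libraries held 53 to 64 counts, or 0.68, 0.74, 0.71 and 0.71 FPKM. The O/A libraries held 117 to 148 counts, or 1.65, 1.44, 1.67 and 1.93 FPKM. CXCL1 held fewer counts than IL6 in every O/A library (82 to 138), so the place of IL6 rests on the scaling by length. The groups were apart, and the O/A libraries were more spread than the ethanol libraries. The log2FC was 1.28 (SE 0.126, adjusted p = 1.55e-12), with a 95% confidence interval of 2.04 to 2.90 on the fold. STEAP1B and IL6-AS1 overlap IL6 on the opposite strand and held at most 7 and 5 counts per library, and whether counting used strand is not given in the sources used here.

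CXCL8 (ENSG00000169429, chromosome 4, 73740519 to 73743716, plus strand) encodes interleukin-8, which draws neutrophils. It ranked 50th of all genes tested by log2FC. Its FPKM was 6.12, 6.31, 6.58 and 6.46 in ethanol and 33.99, 29.90, 33.92 and 35.88 in O/A. Ethanol libraries were almost alike, and the lowest O/A library was above the highest of them by more than 4 times. The log2FC was 2.44 (SE 0.053, adjusted p = 1.55e-35). This moved CXCL8 up in the order by FPKM, past NFKBIA and TNFAIP3.

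CXCL2 (ENSG00000081041, chromosome 4, 74097040 to 74099196, minus strand) and CXCL1 (ENSG00000163739, chromosome 4, 73869393 to 73871308, plus strand) encode close relatives that bind the same neutrophil receptor. CXCL2 had 1.95, 2.12, 2.54 and 3.17 FPKM in ethanol and 7.64, 7.49, 9.91 and 12.47 in O/A. CXCL1 had 2.24, 2.55, 2.35 and 3.11 FPKM in ethanol and 3.53, 3.20, 4.54 and 5.72 in O/A. For both genes replicate 4 was the highest library of each condition, and O/A replicate 3 the next of its condition. These chemokines thus had the widest spread within a condition of the 10 genes, and for CXCL1 the lowest O/A value was only just above the highest ethanol value. The log2FC was 1.97 for CXCL2 (SE 0.237, adjusted p = 0.000169) and 0.76 for CXCL1 (SE 0.161, adjusted p = 0.000220), with 95% confidence intervals on the fold of 2.67 to 5.75 and 1.35 to 2.13. Levels of the pair overlapped in ethanol, and in O/A CXCL2 was above CXCL1 in every library. The ratio of CXCL2 to CXCL1 rose from 0.951 ± 0.119 to 2.22 ± 0.0828, a difference of 1.22 on the log2 scale, and that of CXCL8 to CXCL1 from 2.52 ± 0.327 to 8.18 ± 1.59, a difference of 1.70 (exact permutation p = 0.0286 and adjusted p = 0.0343 over 6 ratios for each). The coding sequences of CXCL1 and CXCL2 share 93.5% of their bases, so short reads can be hard to place: of the stretches of 50 bases in CXCL1 mRNA, 5.33% also occur in CXCL2, and of those of 150 bases none does.

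Promoter sequences are shown for the chemokines and IL6, which rose together, and the κB site is the motif that NF-kB dimers bind. RefSeq promoters (GRCh38.p14) were searched from 250 bases before to 50 bases after the start site on both strands for the 10-letter NF-kB consensus and for the 9-letter form GGANNTTCC, which overlaps it. The consensus occurs in 11.3% of 35116 promoters and GGANNTTCC in 4.56%. CXCL1, CXCL2 and IL6 held the consensus, with its first base at -79, -78 and -73 from the start site. CXCL8 held GGANNTTCC at -91, an AP-1 type match TGANTCA at -137 (7.71% of promoters) and TATAAA at -31 (7.33% of promoters, gene strand only). The 150 bases before the start site follow, 5′ to 3′ on the strand of the gene, with matches of either κB form in capitals. In this window CXCL1 and CXCL2 carry the same match at nearly the same place. A link between these matches and the fold changes was not tested.
CXCL8 (chr4:73740419-73740568, plus strand): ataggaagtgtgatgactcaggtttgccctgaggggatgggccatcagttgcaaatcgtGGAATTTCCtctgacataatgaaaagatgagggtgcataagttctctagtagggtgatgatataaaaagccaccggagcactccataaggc
CXCL1 (chr4:73869243-73869392, plus strand): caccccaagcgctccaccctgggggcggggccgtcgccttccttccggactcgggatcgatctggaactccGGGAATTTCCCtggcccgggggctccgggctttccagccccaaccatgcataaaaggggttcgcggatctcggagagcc
CXCL2 (chr4:74099196-74099345, minus strand): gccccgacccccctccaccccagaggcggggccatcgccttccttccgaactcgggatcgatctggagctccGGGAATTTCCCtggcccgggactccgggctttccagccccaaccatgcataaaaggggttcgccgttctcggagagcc
IL6 (chr7:22727050-22727199, plus strand): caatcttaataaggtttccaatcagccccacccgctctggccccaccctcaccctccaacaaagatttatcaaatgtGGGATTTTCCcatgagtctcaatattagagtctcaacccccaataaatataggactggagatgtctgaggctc

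No match of either κB form was found in the windows of IL1A, IL1B and IL1RN, which says only that these letters are not there, and IL18 had no entry. IL1A had 2 entries and IL1RN 3, for different start sites. The window of the first IL1RN start site held TGANTCA at -223. That of the first IL1A start site held TGANTCA at -12 and at 39, and its 150 bases before the start are given for comparison with those of the chemokines. The motif TTGCNNAA, a C/EBP type match found in 10.5% of promoters, occurred in IL1B, IL6 and CXCL2. TGATGNAAN, an ATF4 and C/EBP composite type match found in 3.61% of promoters, occurred in none of the 9 genes with an entry.
IL1A (chr2:112784494-112784643, minus strand): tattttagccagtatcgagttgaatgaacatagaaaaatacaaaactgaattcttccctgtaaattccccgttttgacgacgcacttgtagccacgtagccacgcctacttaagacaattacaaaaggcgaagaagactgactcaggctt

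TNFAIP3 (ENSG00000118503, chromosome 6, 137867214 to 137883314, plus strand) encodes A20, which removes activating ubiquitin chains upstream of the IκB kinase. Its FPKM was 12.60, 13.20, 12.38 and 14.04 in ethanol and 16.55, 16.02, 16.11 and 17.19 in O/A. NFKBIA (ENSG00000100906, chromosome 14, 35401079 to 35404749, minus strand), which encodes IκBα, had 13.31, 12.79, 13.01 and 13.85 FPKM in ethanol and 17.64, 16.66, 16.38 and 17.05 in O/A. In both genes the O/A libraries were all above the ethanol libraries, by a small margin. The log2FC was 0.38 for TNFAIP3 (SE 0.037, adjusted p = 2.57e-12) and 0.40 for NFKBIA (SE 0.043, adjusted p = 2.38e-11). FPKM values of the pair overlapped in each condition. Their ratio was 0.986 ± 0.0433 in ethanol and 0.973 ± 0.0300 in O/A, a difference of -0.02 on the log2 scale (exact permutation p = 0.657). WAKMAR2, on the opposite strand of TNFAIP3, held 25 to 55 counts per library, or 2.25% of the reads of TNFAIP3.

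Both inhibitor genes are classical NF-kB targets, and their promoters are shown beside those of the chemokines for that reason. TNFAIP3 held the NF-kB consensus at -67 and at -55, and NFKBIA at -81, all on the strand opposite to the gene. NFKBIA also held GGANNTTCC at -242, outside the stretch printed. Of the 9 genes with a promoter entry, 5 held the consensus and a sixth, CXCL8, the GGANNTTCC form alone. Among promoters of tested genes, 13.2% held the consensus and 4.64% GGANNTTCC. The fold changes of genes with such a match spanned 1.30 (TNFAIP3) to 5.41 (CXCL8), and those without one 1.35 (IL1RN) to 4.01 (IL1A). Whether a match bears on the fold change was not tested.
TNFAIP3 (chr6:137867109-137867258, plus strand): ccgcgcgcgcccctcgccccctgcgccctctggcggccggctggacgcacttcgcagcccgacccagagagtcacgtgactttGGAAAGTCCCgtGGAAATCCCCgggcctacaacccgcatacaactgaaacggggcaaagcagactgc
NFKBIA (chr14:35404750-35404899, minus strand): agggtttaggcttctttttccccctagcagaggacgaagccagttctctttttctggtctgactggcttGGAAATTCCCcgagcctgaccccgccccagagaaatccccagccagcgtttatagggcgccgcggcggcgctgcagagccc

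The order of levels per length in ethanol was IL1A, IL1B, IL18, NFKBIA, TNFAIP3, CXCL8, IL1RN, CXCL1, CXCL2 and IL6. By FPKM, NFKBIA and TNFAIP3 did not differ beyond the spread of their libraries, nor did CXCL1 and CXCL2. In O/A the order was IL1A, IL1B, IL18, CXCL8, NFKBIA, TNFAIP3, CXCL2, IL1RN, CXCL1 and IL6. There NFKBIA and TNFAIP3, and CXCL2 and IL1RN, overlapped. Both orders rest on the exonic lengths of the deposited data, which exceed those of the MANE transcripts for some genes. For IL6 these were 4321 and 1127 bases, for TNFAIP3 6393 and 4665, for NFKBIA 3394 and 1559, and for IL1A 2017 in each. An order by another length was not computed. Summed over the 10 genes, the level was 257 to 282 FPKM with ethanol and 746 to 807 with O/A, most of it from IL1A and IL1B.

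Among the other IL-1 family ligands and the receptors of IL-1, IL-18 and IL-6, 8 of the 11 genes tested were higher in O/A, none was lower and 3 did not pass. Of all genes tested, 15.8% were higher and 18.9% lower. The list's median log2FC was 0.51, and 7 of the 18 genes of the list, among them IL33, IL36A and IL37, were too low to test. IL1RL1, the receptor of IL-33, rose from 22 to 35 counts with ethanol to 182 to 262 with O/A (log2FC 2.95, SE 0.144, adjusted p = 6.57e-23). IL18R1 overlaps IL1RL1 on the same strand and had 17 to 26 counts with ethanol and 22 to 39 with O/A. Mixing of the reads of these genes was not examined. IL36G, an epidermal ligand of the IL-36 receptor, had 28 to 46 against 57 to 63 counts (log2FC 0.84, adjusted p = 2.76e-05). The receptor chains for the ligands among the 10 genes had smaller log2FC values. IL1R1, the signalling receptor of IL-1, had 1.97 to 2.15 FPKM in ethanol and 1.75 to 1.84 in O/A, and its log2FC of -0.16 (adjusted p = 0.0604) did not pass. IL1RAP, its partner chain, rose (log2FC 0.28, adjusted p = 2.66e-09), though its log2FC was within the fold threshold with library totals only (0.23) and in limma on log2(FPKM + 0.1) (0.23) and log2(FPKM + 1) (0.21). The receptor genes IL6R (0.38, adjusted p = 3.54e-11) and IL6ST (0.64, adjusted p = 5.49e-26) rose as well.

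Of the other chemokines and cytokines, 11 of the 17 tested were higher and 2 lower (15.8% and 18.9% of all genes tested), with a median log2FC of 1.23, and 10 of the 27 were too low to test, among them CXCL5, CXCL6 and CCL2. IL20, a cytokine of the IL-10 family that acts on keratinocytes, was at 0 counts in every ethanol library and had 10 to 21 with O/A, at least 21.5-fold higher when the ethanol group is set at a floor of 3 counts. Placing IL20 at that bound leaves it the highest of its list, so the median is the same. TSLP, an epithelial cytokine of allergic inflammation, rose from 3 to 9 counts to 33 to 45 (log2FC 2.72, adjusted p = 1.37e-11). IL20 and TSLP reached 10 counts in O/A libraries only. CCL20 and IL23A, a subunit gene of interleukin-23, fell below 10 counts in their lowest ethanol library (7 and 8). Ethanol alone would thus not have met the filter of 10 counts in 4 libraries. All of these genes entered the test through the group where they are high. The 11 higher genes and the median of 1.23 include IL20, TSLP, CCL20 and IL23A and were not computed without them. CCL20, which draws cells bearing CCR6, rose from 7 to 17 counts to 64 to 71 (log2FC 2.61, adjusted p = 3.25e-15). CXCL3, a close relative of CXCL1 and CXCL2, rose from 46 to 55 counts to 109 to 137 (log2FC 1.38, adjusted p = 6.99e-13). This value lay between those of CXCL1 (0.76) and CXCL2 (1.97). The coding sequence of CXCL3 shares 94.4% of its bases with that of CXCL2 and 90.7% with that of CXCL1. Short reads can thus be hard to place here too, and 5.07% of the stretches of 50 bases in CXCL2 mRNA occur in CXCL3. TNF, the other main activator of NF-kB, had 75 to 101 counts with ethanol and 80 to 97 with O/A (log2FC 0.10, adjusted p = 0.548). The falls were those of the colony-stimulating factor genes CSF1 (log2FC -0.47, adjusted p = 1.60e-05) and CSF3 (-0.37, adjusted p = 0.0440). For CSF3 the O/A and ethanol libraries overlapped, and its call was lost when any 1 library other than ethanol replicate 3 or O/A replicate 4 was left out (edgeR adjusted p = 0.0621 without ethanol replicate 1, 0.1 without ethanol replicate 2, 0.107 without ethanol replicate 4, 0.109 without O/A replicate 1, 0.113 without O/A replicate 2 and 0.113 without O/A replicate 3).

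Of 16 genes for NF-kB subunits, IκB proteins and the IκB kinase, all were tested, 6 were higher and 1 lower (15.8% and 18.9% of all genes tested), with a median log2FC of 0.20. NFKBIZ, a nuclear IκB protein needed for a part of the NF-kB response, rose from 2.80 ± 0.225 to 6.54 ± 0.525 FPKM (log2FC 1.27, adjusted p = 1.67e-22). RELB (0.89, adjusted p = 6.75e-15), NFKB2 (0.64, adjusted p = 8.80e-19) and NFKB1 (0.44, adjusted p = 1.58e-15), subunit genes that are NF-kB targets themselves, also rose. RELA, the subunit of the main NF-kB dimer, had a log2FC of 0.13 (adjusted p = 0.00148), within the fold threshold. MAP3K14, the kinase of the non-canonical pathway, fell by 0.54 on the log2 scale (adjusted p = 1.43e-07).

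Of 20 genes that carry the signal from the IL-1 and TNF receptors to the kinase, 5 were higher, 4 lower and 11 did not pass, with a median log2FC of 0.10. These shares are near those of all genes tested (15.8% higher, 18.9% lower). PELI1 (log2FC 1.06, adjusted p = 3.52e-25), IRAK2 (0.99, adjusted p = 4.33e-17) and RBCK1 (0.82, adjusted p = 3.21e-29) had the largest rises. TAB1 (-0.54, adjusted p = 7.52e-10), TRAF2 (-0.48, adjusted p = 1.01e-07) and RNF31 (-0.75, adjusted p = 0.000358) had the largest falls. RBCK1 and RNF31 encode subunits of the same linear ubiquitin ligase, and for RNF31, at 49 to 153 counts per library, the groups overlapped.

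Of the other NF-kB feedback and target genes, 9 of the 18 tested were higher and none lower (15.8% and 18.9% of all genes tested), with a median log2FC of 0.26. PTGS2, the inducible cyclooxygenase, rose from 24.5 ± 0.911 to 76.8 ± 2.42 FPKM (log2FC 1.69, adjusted p = 6.43e-43). BIRC3, an inhibitor of apoptosis, rose with a log2FC of 1.54 (adjusted p = 3.38e-33) and ICAM1, an adhesion molecule, with 1.13 (adjusted p = 2.27e-19). The log2FC values of TNFAIP3 (0.38) and NFKBIA (0.40) lay between these and the median of the list.

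Genes of the inflammasome and of IL-1 processing held a median log2FC of 0.05, with 3 of 15 tested higher and 2 lower, shares near those of all genes tested (15.8% and 18.9%). CASP4, an inflammatory caspase, rose from 10.5 ± 0.436 to 20.1 ± 0.571 FPKM (log2FC 0.98, adjusted p = 1.41e-29). NLRP1, the main inflammasome sensor of keratinocytes, rose from 2.65 ± 0.127 to 4.63 ± 0.283 FPKM (log2FC 0.85, adjusted p = 8.14e-22). NLRP10 had 25 to 37 against 30 to 55 counts, with overlapping groups (log2FC 0.53, adjusted p = 0.0216). It was not called without ethanol replicate 2 (edgeR adjusted p = 0.0546) or O/A replicate 3 (0.136), or by DESeq2 (0.0540), and its log2FC was 0.14 in limma on log2(FPKM + 1). CASP1, which cleaves the IL-1β and IL-18 precursors, had a log2FC of 0.12 (adjusted p = 0.0463), within the fold threshold. CASP8 (-0.51, adjusted p = 1.07e-14) and the adaptor PYCARD (-0.36, adjusted p = 0.000527) fell. The plot of fold changes by list sets these lists beside the 10 genes.

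**Figure D3:**
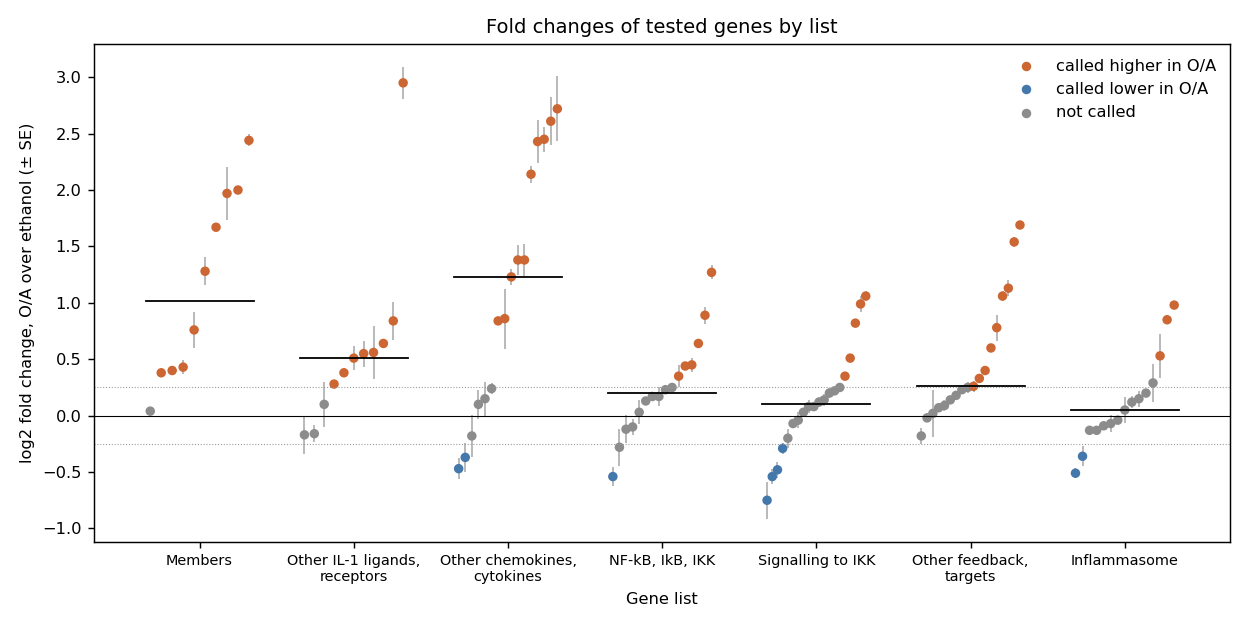
Log2 fold change (O/A over ethanol, ± SE) of each tested gene of the 10 described here (members) and of 6 related lists, with black bars at list medians and dotted lines at the fold threshold of 0.25. The median is 1.02 for the 10 genes and 1.23 for the other chemokines and cytokines, and 0.05 to 0.51 for the remaining lists, and IL20, with 0 counts in ethanol, is left out of the points but not of the median.

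The IL-1 genes lie together on chromosome 2, where IL1A to IL1RN span 360.1 kb, and the chemokines together on chromosome 4, where CXCL8 to CXCL2 span 358.7 kb. Within the chromosome 2 span and 500 kb on either side, 13 of 18 other coding genes were tested, of which 5 were higher and 4 lower, beside 15.8% and 18.9% of all genes tested. SLC20A1, a phosphate transporter gene on the side of IL1A, rose (log2FC 1.12), and CKAP2L, the nearest other coding gene to IL1A on that side, fell by 0.90 on the log2 scale. On chromosome 4, 7 of 15 other coding genes were tested, of which 6 were higher and none lower. The epidermal growth factor family ligands EREG (log2FC 2.44), AREG (1.97) and EPGN (1.56), which lie past CXCL2, were among them. CXCL6, PF4V1 and PF4, which lie between CXCL8 and CXCL2, had 0 counts in all 8 libraries. ANKRD17, on the other side of CXCL8, had a log2FC of -0.23 and was not called, though it was called lower at -0.26 without ethanol replicate 3, at -0.28 with library totals only, and in limma at -0.28 on log2(FPKM + 0.1) and -0.26 on log2(FPKM + 1). The plot of fold change against distance shows both regions.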

How the data were processed

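mRNA of N/TERT-1 cells was measured in 4 ethanol and 4 O/A libraries, with condition and replicate number taken from the sample labels. The paper describes the experiments as independent. The authors selected polyadenylated RNA, used HISAT2 2.0.1 to align the read pairs to GRCh38.p13 and made each raw count per gene with HTSeq 0.6.1. The Ensembl release and the strand setting are not given in the sources used here. The authors derived the FPKM values from the counts: all were within 0.005 of the count over exonic length and library total. A deposited table of the authors' own DESeq2 comparison (mean normalized signal, fold change ratio, log2 fold change and its standard error, test score and p-values) was not used.

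Counts were tested with edgeR 4.0.16 (R 4.3.3, TMM scaling, robust quasi-likelihood test) for the 14893 genes that reached 10 counts in 4 or more libraries. Ratios of 2 genes were compared as log2(TMM CPM + 0.1) by exact permutation of the 8 libraries. Intervals and SE of fold changes come from the edgeR fit. Alternatives were DESeq2 1.42.0, limma 3.58.1 on log2(FPKM + 0.1) or log2(FPKM + 1), testing every gene with a count, median-ratio scaling, library totals only, a block for replicate number, leaving out 1 library and other fold thresholds or pseudocounts. On simulated data for this comparison the edgeR test recovered 180 of 197 changed genes among 14737 tested, with 5 false calls. With 17210404 to 20999927 counts per library, genes with few counts are imprecise.

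The genes named are the 10 genes, the up to 3 called genes with the largest and the up to 3 with the lowest log2FC of each list, and IL1R1, IL1RAP, IL6R, IL6ST, RELA, NFKB1, TNF, CXCL3, CASP1, PYCARD and NLRP1. The 10 genes and all lists were chosen with earlier results of these data known. Marker genes, neighbouring genes and genes in the additional observations were named outside this rule, and some results are not reported here. Coordinates are those of the deposited table (GRCh38). Promoters are from RefSeq (GRCh38.p14), in which 9 of the 10 genes were found, and 3′ untranslated regions from GENCODE MANE transcripts on GRCh38. Over all genes tested, same-numbered libraries did not deviate together (correlations of -0.0336 to 0.0826), so the numbers were not taken to pair the libraries. For CXCL1 and CXCL2, though, the same library number was the highest in each condition. With a block for replicate number, edgeR's adjusted p was 5.46e-06 for CXCL1 and 2.49e-18 for CXCL2.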

Additional observations from a re-analysis of the deposited data

Results flagged for a closer look

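In O/A replicate 2, IL1B was at 622 TMM-scaled CPM, while the other O/A libraries were at 662 to 666, a gap wide enough to set this library apart from the other 3 of its group. It was the only such library among the 20 groups of 4 examined, 2 per gene, and chance gives about 1 in 20. The value remained above that of every ethanol library.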

How the results depend on the processing

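Of 150 log2FC values of the 10 genes under other settings, 147 kept their direction and their call. The other 3 were those of IL18, which was not called in any of them and was -0.010 on log2(FPKM + 0.1), -0.010 on log2(FPKM + 1) and -0.009 with library totals only. IL6, the lowest gene by FPKM, had 0.64 on log2(FPKM + 1), where the pseudocount shrinks changes of low genes. With 1 library left out, the log2FC of CXCL1 was 0.59 to 0.89 and that of CXCL2 1.81 to 2.14. Of 136 counts of calls, 124 stayed within 1.5 times, and 12 moved with the fold threshold. Without it, 7999 genes were called in all, 11 of the NF-kB list, 16 of the signalling list, 14 of the feedback and target list and 10 of the inflammasome list. Above 1, these were 797 in all, 5 of the 10 genes, 1 of the IL-1 ligand and receptor list, 1 of the NF-kB list, 1 of the signalling list, 4 of the feedback and target list and 0 of the inflammasome list, in edgeR. The ratio tests cannot pass with 7 libraries, since the smallest exact p is then 0.0571. Differences with 1 library left out were -1.62 to -1.53 for IL1RN to IL1A, -1.29 to -1.20 for IL1RN to IL1B, -0.34 to -0.32 for IL1B to IL1A, 1.61 to 1.81 for CXCL8 to CXCL1, 1.16 to 1.28 for CXCL2 to CXCL1 and -0.038 to 0.003 for TNFAIP3 to NFKBIA, the last with a change of sign without ethanol replicate 2. With the replicate number as a block, edgeR called 5160 genes and 9 of the 10, and the sign-flip test of 4 pairs, whose smallest p is 0.125, gave -1.573, -1.243, -0.330, 1.695 and 1.216 for the first 5 ratios (adjusted p = 0.150 each). Not every library correlated best with its own number. No other scaling moved the median of all genes by more than 0.046. The 4 libraries per condition and the low counts of IL6, CXCL1 and CXCL2 limit the precision of these values.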

Other observations

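Some cytokine genes outside the naming rule, chosen after their values were seen, also rose in O/A. IL11, a cytokine that signals through the same chain as IL-6, had 44 to 61 counts with ethanol and 232 to 288 with O/A (log2FC 2.45, SE 0.112, adjusted p = 6.02e-25 in edgeR's quasi-likelihood test, as for the other genes here). LIF, another ligand of that chain, rose from 2.70 ± 0.133 to 6.14 ± 0.377 FPKM (log2FC 1.23, adjusted p = 1.14e-20). IL24, a relative of IL20, rose from 5.21 ± 0.716 to 22.4 ± 1.89 FPKM (log2FC 2.14, adjusted p = 6.86e-19). IL23A, a subunit of interleukin-23, had 8 to 20 counts with ethanol and 75 to 88 with O/A (log2FC 2.43, adjusted p = 1.44e-15). CSF2, which encodes the growth factor GM-CSF, had 37 to 49 against 83 to 116 counts (log2FC 1.38, adjusted p = 8.57e-12), beside the falls of CSF1 and CSF3. TGFA, an autocrine growth factor of keratinocytes, rose from 43.1 ± 0.755 to 74.7 ± 2.41 FPKM (log2FC 0.84, adjusted p = 4.62e-31).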
